A study of Mus musculus with 10 samples.

Results

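The 8 known long non-coding RNAs (lncRNAs) described here were counted in every testes sample of the mouse and were listed in no sperm sample. They were selected on these measured values. A known lncRNA of the NONCODE catalogue was kept if its expected count was at least 100 in each of the 4 testes samples and if none of the 6 sperm samples listed it, and the gene NONMMUG018329.2 was set aside. Over all samples, 84289 transcripts were listed, of which 51610 were known lncRNAs. Of these, 2031 passed the floor of 100 counts in testes, 2023 of them were also listed in sperm, and 8 were not. The 8 lncRNAs, of 8 different genes, were NONMMUT121871.1, NONMMUT064462.2, NONMMUT116489.1, NONMMUT040794.2, NONMMUT070512.2, NONMMUT016583.2, NONMMUT076280.1 and NONMMUT027474.2. Of the sperm samples, 1 decided much of this number: without sperm cadmium 1, 18 lncRNAs would have been chosen, the 8 among them.

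RNA was taken from testes and from mature sperm of C57BL/6 mice labelled as 3 to 5 months old. The testes control (n = 2) and sperm control (n = 4) samples came from mice injected with saline, and the testes cadmium (n = 2) and sperm cadmium (n = 2) samples from mice given CdCl2 at 3 mg/kg into the peritoneum a single time. All mice were killed on day 35. Mice were pooled for a sample, sperm were freed from the cauda epididymis and vas deferens and treated with a buffer that lyses somatic cells, ribosomal RNA was removed with RNase H, and libraries kept the strand. The paper left out the data of a sperm sample that it names sperm-1, for a low correlation with the other sperm replicates. It does not say whether this is sperm control 1, and all 4 sperm control samples were kept here. Without sperm control 1, 9 lncRNAs would have been chosen, the 8 among them. The labels do not tie testes samples to individual animals, so that a p-value below measures only the spread between these samples.

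LncRNAs are transcripts that are not known to be translated. In the testis, germ cells pass from spermatogonia through meiosis to round and then elongating spermatids, and this tissue is known for transcribing an unusually large number of lncRNAs. Sperm leave the testis with condensed chromatin and little cytoplasm and make next to no RNA of their own, so that most of their RNA is carried over from earlier stages. The 8 lncRNAs carried catalogue identifiers alone, and their genome positions, sequences and roles were not analysed here.

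Expected counts are the authors' estimates of how many fragments came from a transcript. The tables hold values above 0 only, and an unlisted transcript was read as 0. The expected counts summed to between 2606086 and 2866856 in a testes sample and between 366455 and 1254477 in a sperm sample, which was therefore read less deeply. Known lncRNAs held 78.0 to 78.6% of the counts in testes and 73.4 to 78.0% in sperm. The identity of the tissue was checked with marker genes. In the 4 testes samples, Prm1, a protamine that packs sperm DNA, had 116 to 128 counts. Of the 8 spermatogonial markers, the receptor Gfra1 had 242 to 321 counts, while Kit, Zbtb16, Sall4 and Uchl1 had 0 or 1. Of the 7 Leydig cell markers, Star, which carries cholesterol into mitochondria, had 106 to 168 counts, while Cyp11a1, Hsd3b6 and Hsd17b3 had 0 to 4. Star was also listed in 5 sperm samples, with up to 40 counts in sperm control 3. Of 9 markers of elongating spermatids, 7 were listed in all testes samples and 8 in some, not always every, sperm sample. Prm1 itself had 0 to 10 counts in a sperm sample. The markers Dmc1, Lhcgr, Fshr, Pecam1, Cdh5 and Adgre1 were listed in no sample. Of the 10 spermatocyte markers, 5 were listed in all testes samples, and their summed level was 9.49 to 18.8 CPM (counts scaled to a common library total) in testes and 0 to 3.46 in sperm. The Leydig cell markers summed to 43.1 to 64.5 CPM in testes and 0 to 109 in sperm. Those of round spermatids summed to 18.5 to 33.4 CPM in testes and to more, 25.9 to 216, in sperm. Those of elongating spermatids summed to 236 to 304 CPM in testes and 127 to 268 in sperm. Sertoli cell markers summed to 39.8 to 51.2 CPM in testes and 0 to 18.3 in sperm. Of the 5 markers of the epididymal epithelium, 2 were listed in some sperm sample, at 0 to 5.58 CPM in all, and 4 of 5 leukocyte markers were listed there, at 0 to 5.19. The part of these cell types in the results was not tested.

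The levels of the 8 lncRNAs were compared as FPKM, which divide the count by transcript length and library size. Mean FPKM over the 4 testes samples ran from 36.6 ± 6.05 (SD, n = 4) for NONMMUT027474.2 to 137 ± 37.3 for NONMMUT121871.1, with a median over the 8 of 62.8. Below NONMMUT121871.1 came NONMMUT064462.2 at 77.8 ± 29.3, NONMMUT116489.1 at 65.4 ± 11.6, NONMMUT040794.2 at 64.1 ± 16.2, NONMMUT070512.2 at 61.5 ± 13.8, NONMMUT016583.2 at 59.6 ± 18.3 and NONMMUT076280.1 at 37.9 ± 8.63. From NONMMUT064462.2 to NONMMUT016583.2, each mean lay within 1 SD of the next, taking the larger SD of each pair, and so did the means of NONMMUT076280.1 and NONMMUT027474.2. Together the 8 lncRNAs held between 0.0876% and 0.111% of the counts of a testes sample. Their lengths ran from 776 bp for NONMMUT116489.1 to 3430 bp for NONMMUT016583.2.

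**Figure D1:**
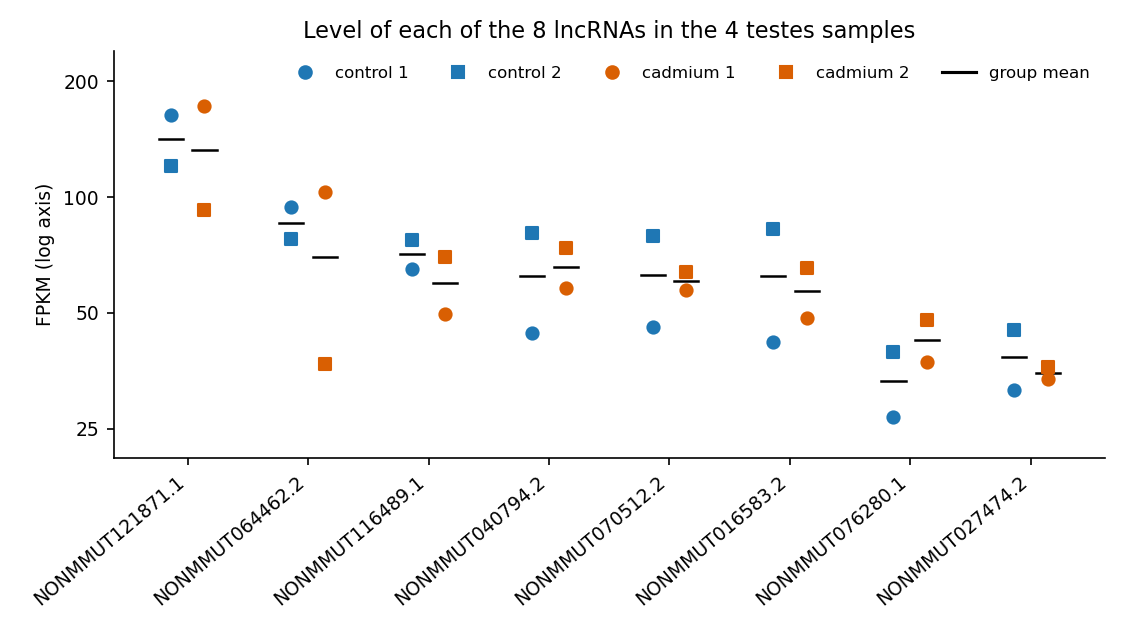
FPKM (log axis) of each of the 8 lncRNAs in testes control 1 and 2 (blue) and testes cadmium 1 and 2 (orange), with the mean of each group as a bar. NONMMUT121871.1 is the highest in every sample, and in no lncRNA do the control and the cadmium samples separate.

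The 2 lncRNAs whose gene had no other listed transcript gave the simplest case. NONMMUT027474.2 (gene NONMMUG017034.2, 3293 bp) had 294 and 384 counts in testes control and 312 and 320 in testes cadmium, and 0 in every sperm sample. Its FPKM were 31.4 and 45.2 in control and 33.6 and 36.25 in cadmium testes. Had sperm held it at the share it had in testes, the 6 sperm samples would have held 566 counts in all, and each between 43.5 and 149. A count of 0 allows up to 3 counts, so that its share was at least 189-fold lower in the sperm samples summed, and at least 14.5- to 49.7-fold lower in each sample. NONMMUT116489.1 (gene NONMMUG073085.1, 776 bp), the shortest, had 136 and 146 counts in control and 103 and 137 in cadmium testes, or 65.0 and 77.2 FPKM and 49.7 and 69.7 FPKM. At its testes share the sperm samples would have held 226 counts in all, and each between 17.3 and 59.4, so that its share in sperm was at least 75.2-fold lower. Both had whole counts, to within 0.005, in all 4 testes samples. In such bulk samples, fewer cells of a type and less of the RNA per cell cannot be told apart.

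**Figure D2:**
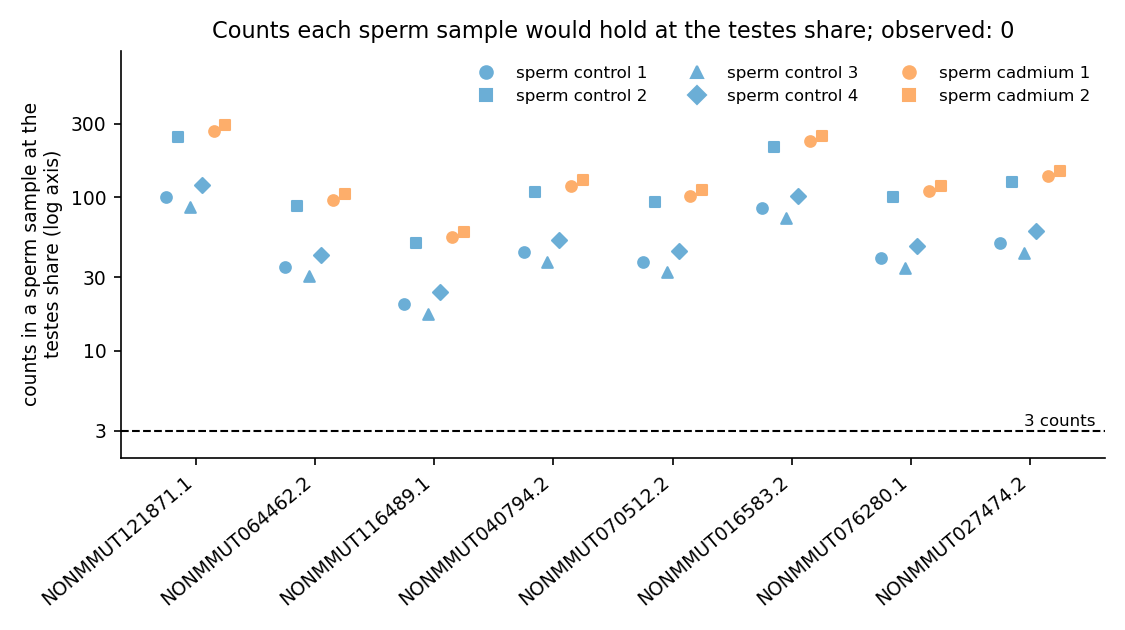
Expected counts (log axis) that each of the 6 sperm samples would have held of each of the 8 lncRNAs at its share of the counts of the testes samples, where 0 were observed. The dashed line marks the 3 counts that a count of 0 allows, and every point lies above it, the lowest at 17.3 for NONMMUT116489.1 in sperm control 3.

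The other 6 lncRNAs belonged to genes of which another transcript was listed in sperm. Their counts were whole in none of the 4 testes samples. An estimate that divides fragments between transcripts of a gene is uncertain where these share sequence, and how it was made here is not stated. For these, the absence from sperm concerned a transcript and not its gene. The gene's counts were therefore followed transcript by transcript in all 10 samples.

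NONMMUG034708.2 differed from the other 5 genes in that it had the higher share of the library in sperm. Its chosen transcript NONMMUT121871.1 (1740 bp) had 797 and 532 counts in control and 831 and 425 in cadmium testes, or 163, 120.4, 172 and 92.6 FPKM. Cadmium 1 was the highest and cadmium 2 the lowest, so that the groups overlapped. The other transcript, NONMMUT055892.2 (2981 bp), had 2985 and 3305 counts in control and 3113 and 2741 in cadmium testes. In sperm, NONMMUT055892.2 was listed in all 6 samples, with 1117, 4448, 1663 and 1560.03 counts in sperm control 1 to 4 and 3690 and 14379 in sperm cadmium 1 and 2. For the gene as a whole, the samples of each tissue summed gave 5634 CPM in sperm and 1336 in testes, 4.22-fold more in sperm, or 2.66-fold more without sperm cadmium 2. The lowest sperm sample, at 2631 CPM, lay above the highest testes sample, at 1472. Yet the chosen transcript held 21.1, 13.9, 21.1 and 13.4% of the gene's counts in the testes samples and none of 26857 counts in sperm. By counting error alone, this allows it a share of up to 0.0112%, or 0.0240% without sperm cadmium 2. At the testes share of 17.6%, 4714 of these counts would have fallen on it. As a share of the library it was at least 373-fold lower in sperm, the largest bound of the 8.

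A like division was seen on a smaller scale in NONMMUG010430.2. Its chosen transcript, NONMMUT016583.2 (3430 bp), the longest of the 8, had 409 and 732 counts in control and 468 and 601 in cadmium testes, or 42.0, 82.7, 48.4 and 65.4 FPKM. It was the minor transcript of a gene that was far higher in testes: NONMMUT016582.2 (4050 bp) had 12457, 11299, 12448 and 9912 counts in the same samples, and the chosen transcript had 3.18, 6.08, 3.62 and 5.72% of the gene. In sperm NONMMUT016582.2 had 142, 200, 119 and 168 counts in control and 228 and 264 in cadmium samples, 1121 in all, whole in each. At 4.57% of the gene, the chosen transcript would have had 51.3 counts, and by counting error alone its absence limits its share to 0.268%. The gene itself was 18.6-fold higher in testes.

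In the remaining 4 genes the other transcripts had few counts in sperm, so that the gene as a whole was also scarce there. Testes exceeded sperm by 32.5-fold for NONMMUG039781.2, 20.5-fold for NONMMUG001708.2, 16.5-fold for NONMMUG025278.2 and 9.56-fold for NONMMUG043644.2, from the CPM of the samples of each tissue summed. In every one of the 4, all testes samples lay above all sperm samples. These totals include the chosen transcript, which the choice itself put over the floor in testes and at 0 in sperm. Without it, testes held 427 counts and sperm 31.0 for NONMMUG001708.2, 1648 and 73.1 for NONMMUG025278.2, and 567 and 69.6 for NONMMUG043644.2. The summed libraries held 11027928 and 4767297 counts. Without it and NONMMUT127999.1, NONMMUG039781.2 had 2.86 counts in testes and 13.6 in sperm. The testes share of the gene would have given between 12.2 and 44.0 sperm counts on the chosen transcript.

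NONMMUT076280.1 (2554 bp) of NONMMUG001708.2 had 194 and 259.6 counts in control and 267 and 326 in cadmium testes, or 26.8, 39.6, 37.25 and 47.8 FPKM. The other transcript, NONMMUT002526.2 (2438 bp), had 126, 163, 53.7 and 84.7 counts in those samples. In sperm it had 6 counts in control 2, 9 in control 4, 12.01 and 4 in the cadmium samples, and none in control 1 and 3. Of these 31.0 counts none fell on NONMMUT076280.1, where its testes share of 71.0% would have given 22.0, which limits its share to 9.67%, or to 15.8% without sperm cadmium 1.

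NONMMUT070512.2 (1490 bp) of NONMMUG043644.2 had 191 and 297 counts in control and 236 and 249.9 in cadmium testes, or 46.05, 79.0, 57.2 and 63.9 FPKM, and 63.2% of its gene. The 3 other transcripts were spread unevenly over the tissues. NONMMUT070510.2 (2096 bp) was also unlisted in sperm, with 125, 142, 85.4 and 110 counts in testes. NONMMUT070513.2 (1204 bp), in contrast, was listed in no testes sample and in 5 sperm samples, with 21.2 counts in sperm control 2, 9.58 in sperm cadmium 1 and 1 or fewer in the others. NONMMUT070514.2 (3742 bp) had 40, 17, 37 and 10 counts in testes and 0 to 20 in sperm. The chosen transcript could have at most 4.31% of the gene's 69.6 sperm counts. Its limit rose to 7.07% without sperm control 2 and to 7.49% without sperm cadmium 1.

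NONMMUT040794.2 (1661 bp) of NONMMUG025278.2, the gene with the most transcripts, had 206 and 339 counts in control and 266 and 322 in cadmium testes, or 44.3, 80.6, 57.9 and 73.6 FPKM. It held 33.8, 43.7, 37.8 and 46.6% of the gene. NONMMUT040796.2 (2001 bp) was the other main transcript, with 315, 383, 369.9 and 333 counts in testes, and 12.9, 5.68, 6.75, 11.9 and 13.9 in the sperm samples other than control 1, which listed none of the gene. NONMMUT040792.2 (1224 bp) was listed in sperm only, at 5 counts in control 2 and 0.87 in cadmium 2. NONMMUT040789.2 (2127 bp) had 59.9, 52.4, 61.0 and 33.4 counts in testes and 4 and 3 in the cadmium sperm samples. NONMMUT040793.2 (1509 bp) had 25.2 counts in testes control 1, 0.35 in testes cadmium 2, and 4 and 5.13 in the cadmium sperm samples. NONMMUT040797.2 (1003 bp) had 2.56 to 6.99 counts in testes and was unlisted in sperm. Of the gene's 73.1 sperm counts, 29.8 would have fallen on NONMMUT040794.2 at its testes share of 40.8%, and at most 4.10% could.

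NONMMUT064462.2 (1105 bp) of NONMMUG039781.2 had 286, 214 and 310.0 counts in testes control 1, control 2 and cadmium 1, and 105 in cadmium 2. Its FPKM were 94.0, 77.6, 103 and 36.8, with cadmium 2 lowest. In that sample alone a second transcript of the same length, NONMMUT127999.1, was listed, with exactly the same count and FPKM, so that both held the same part of the gene's counts. The gene as a whole had 289, 214, 310.0 and 211 counts. The third transcript, NONMMUT064461.2 (1806 bp), had 2.86 counts in testes control 1 and none in the other testes samples, and 3.35, 6.71 and 3.53 counts in sperm control 2, cadmium 1 and cadmium 2. With so few sperm counts, the share of NONMMUT064462.2 was limited only to 22.1%, or 43.6% without sperm cadmium 1, against 89.4% in testes. Measured against the whole library, the transcript was at least 132-fold lower in sperm from the testes samples summed, and at least 61.8-fold lower from testes cadmium 2 alone.

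**Figure D3:**
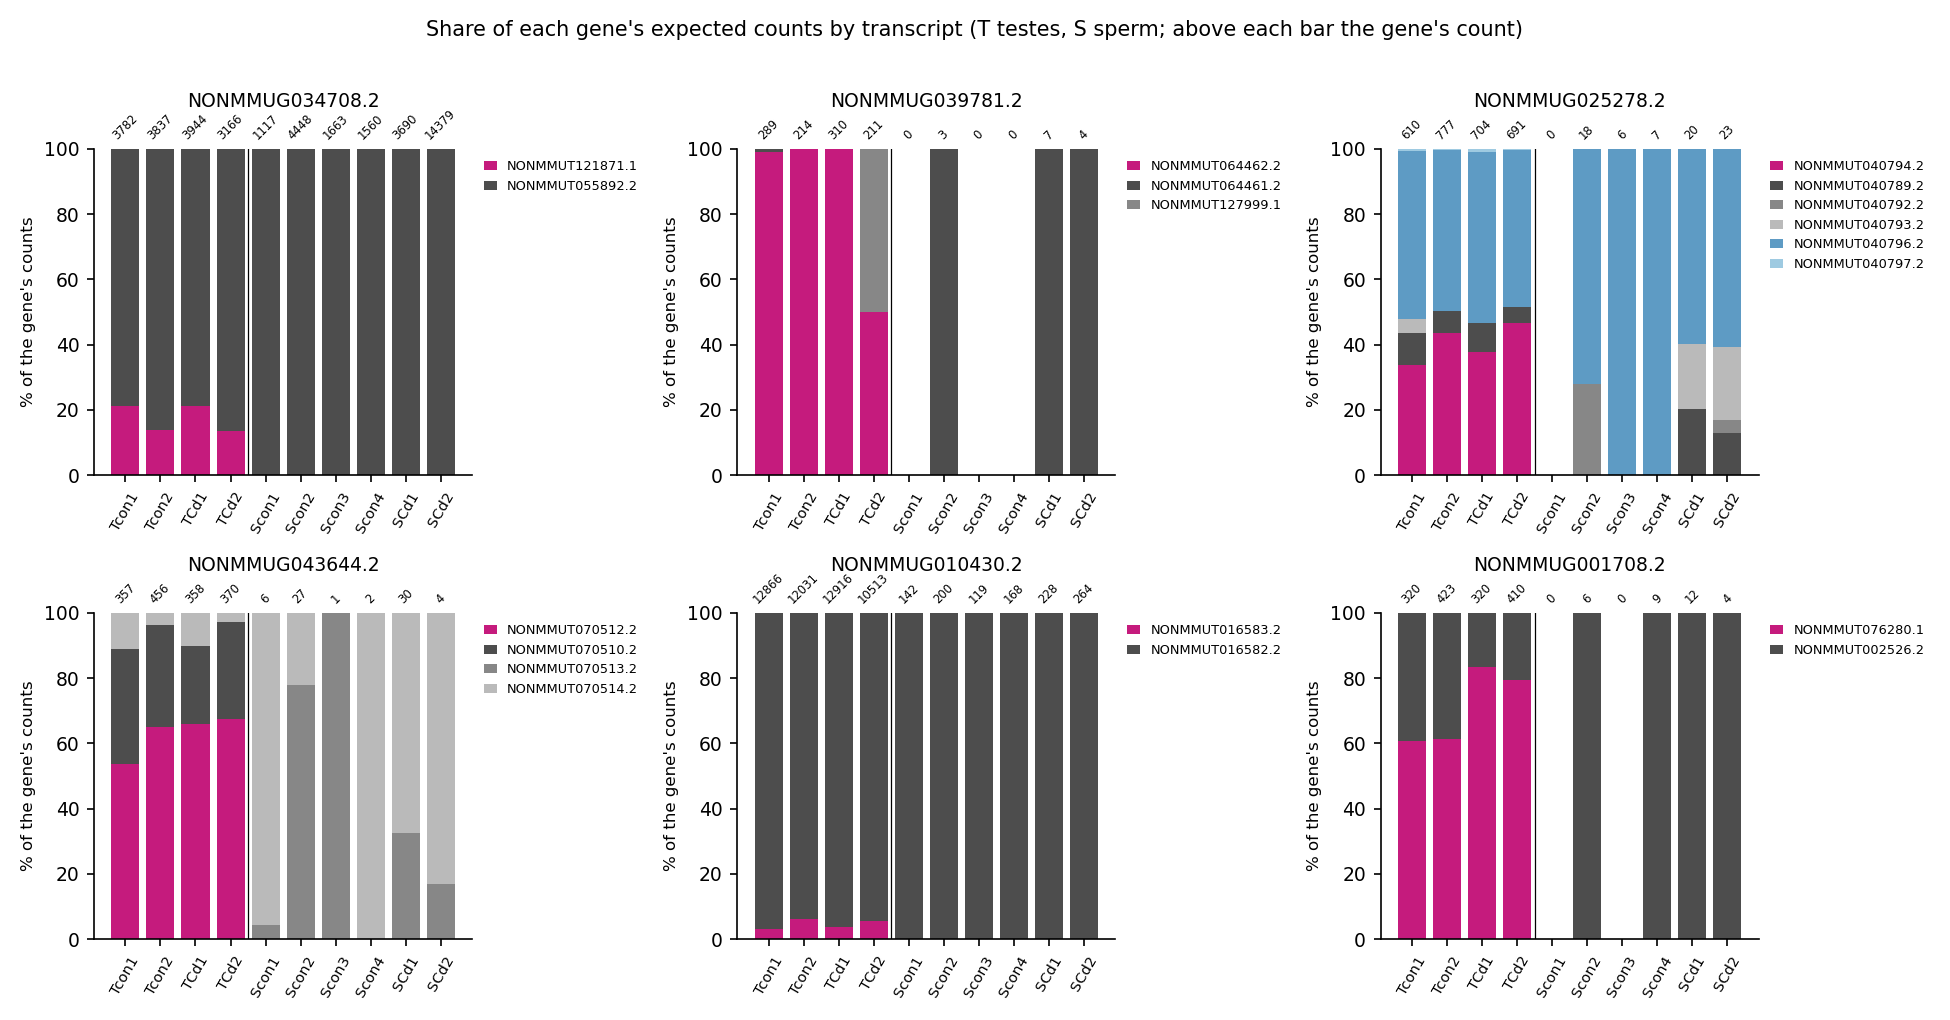
Share of each gene's expected counts (%) by transcript in the 4 testes (T) and 6 sperm (S) samples, for the 6 genes with another listed transcript, the chosen lncRNA in magenta and the gene's count above each bar. Magenta is 3.18 to 100% of each testes bar and absent from every sperm bar, and empty positions are samples without a count of the gene.

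Over the 8 lncRNAs, the bound on the fold between testes and sperm was between 75.2 and 373 for the sperm samples summed, with a median of 157. From the lowest testes sample of each lncRNA it was between 57.5 and 249. For a single sperm sample it was between 5.78, for NONMMUT116489.1 in sperm control 3, and 98.0, for NONMMUT121871.1 in sperm cadmium 2. The values chose these lncRNAs and are given as a description. Of the 2023 known lncRNAs that passed the floor and were listed in sperm, 1649 (81.5%) also had a lower share in sperm, by a median of 2.60-fold over the 2023, and for 26 (1.29%) the fold was at or above the lowest bound of the 8. Most of the 2023, 1268 (62.7%), were listed in all 6 sperm samples and 18 in a single sperm sample.

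**Figure D4:**
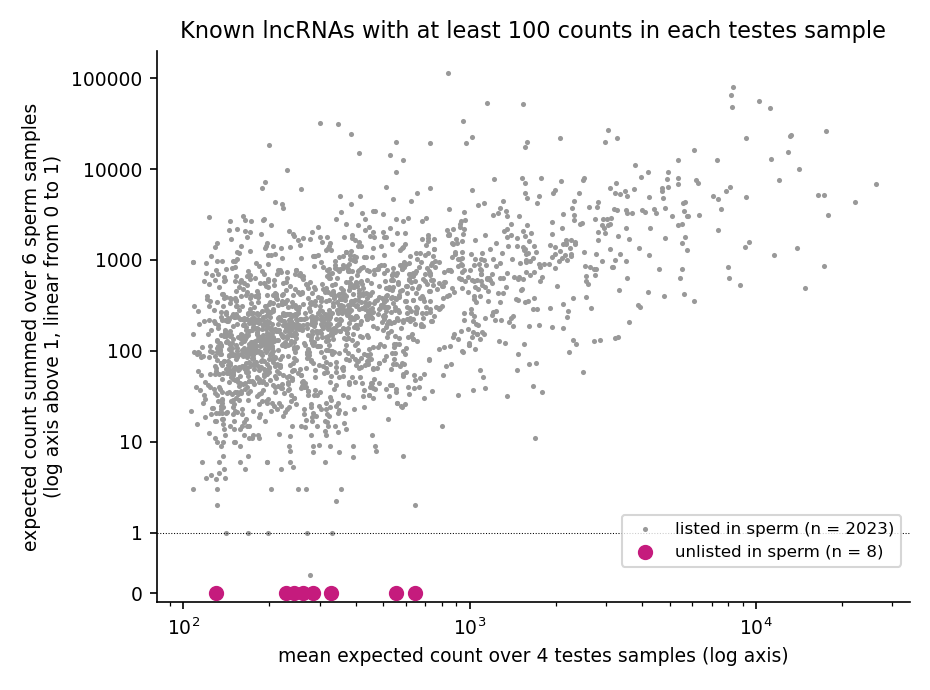
Expected count summed over the 6 sperm samples (log axis above 1) against the mean expected count over the 4 testes samples (log axis) for the 2031 known lncRNAs over the floor. The 8 lncRNAs unlisted in sperm (magenta) lie at mean testes counts of 130.5 to 646, below the upper range of the others (grey), which reaches 26177.

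The 8 were not the most abundant of their class. Their median mean count in testes was 272, against 325 for the 2023, and their median of mean FPKM was 62.8 against 80.4. Median length was 1700.5 bp against 1808 bp. The median coefficient of variation of CPM over the 4 testes samples was 24.0% against 17.2%. Genes with a single transcript made up 2 of the 8 and 1428 (70.6%) of the 2023, and counts were whole in all testes samples for 2 of the 8 and 813 (40.2%) of the 2023. The same choice among other classes of RNA left 1 of 361 known mRNAs over the floor (0.277%), 4 of 229 predicted lncRNAs (1.75%) and 0 of 69 predicted mRNAs, beside 0.394% of the known lncRNAs.

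Just inside the floor were NONMMUT064462.2, with a lowest testes count of 105, and NONMMUT116489.1, with 103. The 105 were in testes cadmium 2, where NONMMUT127999.1, of the same gene and length, had the same count and the gene had 211. Just outside were NONMMUT126759.1, with a lowest count of 86.9, and NONMMUT070510.2, with 85.4, both unlisted in sperm. On the sperm side, 6 lncRNAs over the floor had at most 1 count in all sperm samples and were left out for it, and these were named after their values were seen. They were NONMMUT028531.2, with 0.30 of a count, and NONMMUT009063.2, NONMMUT034578.2, NONMMUT036659.2, NONMMUT116490.1 and NONMMUT134597.1, with 1 count each. In NONMMUT009063.2 the count was in sperm control 2 and in the other 5 lncRNAs in sperm cadmium 1.

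Cadmium exposure was then compared with control in testes, a contrast that the sperm samples do not enter. None of the 8 lncRNAs passed the test. For every one of them the 2 control and 2 cadmium samples overlapped. Of the 28423 transcripts tested, 18.9% did not overlap, and of the 2023 known lncRNAs over the same floor and listed in sperm, 211 (10.4%) did not. With the quasi-likelihood test of edgeR and Benjamini-Hochberg adjustment, 0 of the 28423 were called (0%), which took an adjusted p under 0.05 with over 2-fold change, and 345 (1.21%) had an unadjusted p under 0.05, none of the 8 among them. DESeq2 called 26, none of the 8, and limma called 0. Leaving out a sample raised the edgeR count to 110 without testes control 1, 108 without control 2, 68 without cadmium 1 and 76 without cadmium 2, again with none of the 8. The floor of 100 counts in every testes sample had kept out any lncRNA close to 0 in either group.

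Fitted log2 fold changes (cadmium minus control) of the 8 lay between -0.30 ± 0.500 (SE, n = 2 against 2) for NONMMUT064462.2 and 0.41 ± 0.511 for NONMMUT076280.1, each with an adjusted p of 0.999991 in edgeR. They were above 0 for 2 of the 8, NONMMUT076280.1 and NONMMUT040794.2 (0.11 ± 0.542), and 51.8% of all transcripts tested were above 0. After NONMMUT064462.2, the lowest were NONMMUT116489.1, at -0.17 ± 0.498, and NONMMUT016583.2, at -0.10 ± 0.570. NONMMUT027474.2 was at -0.09 ± 0.492, NONMMUT121871.1 at -0.06 ± 0.456 and NONMMUT070512.2 at -0.02 ± 0.520. The median was -0.08, beside 0.01 for the 2023 lncRNAs of the same floor and 0.02 for all transcripts tested, and it turned to 0.56 without testes control 2 and to 0.15 without cadmium 1. The fold change of NONMMUT064462.2 turned to 0.10 when its counts were summed with those of NONMMUT127999.1, a step chosen after the data were seen. The standard errors ran from 0.456 to 0.570, where the 2-fold limit is 1 on this scale.

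**Figure D5:**
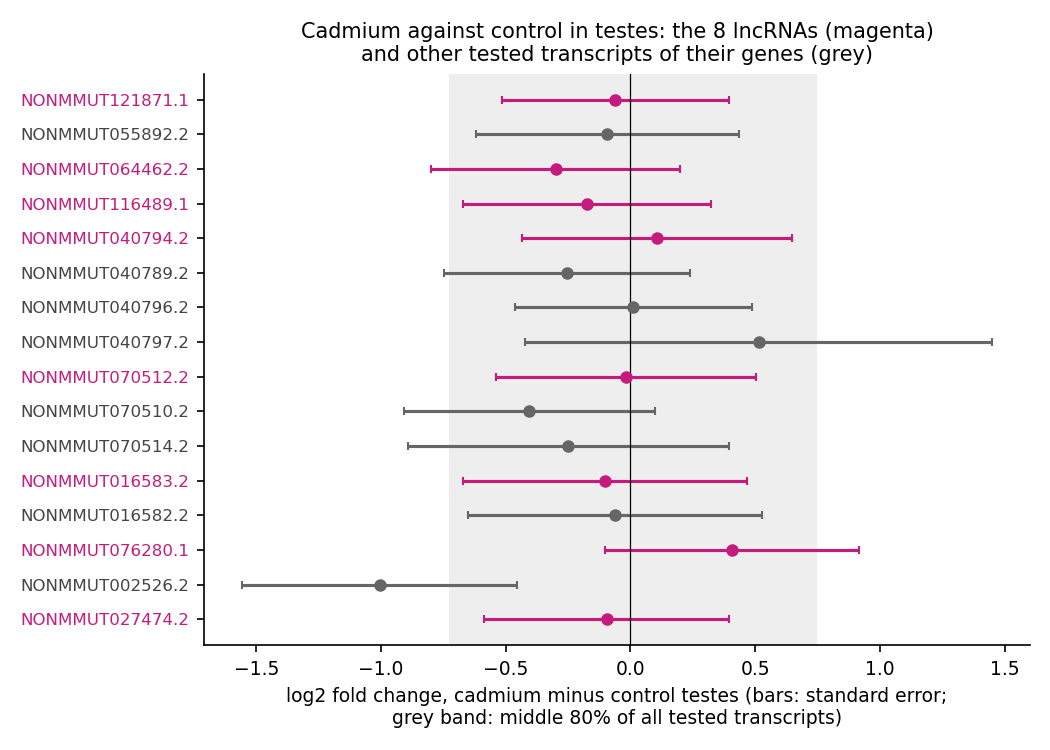
Fitted log2 fold change (cadmium minus control testes) with its standard error for the 8 lncRNAs (magenta) and the other tested transcripts of their genes (grey), on a band that holds the middle 80% of all 28423 transcripts. The 8 lie between -0.30 and 0.41, and NONMMUT002526.2, at -1.01, lies outside the band.

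The share of the gene that the chosen transcript held in testes was compared between the groups for the 6 genes with other transcripts. NONMMUT076280.1 held 60.6 and 61.4% of NONMMUG001708.2 in control and 83.2 and 79.4% in cadmium testes, a mean of 61.0 ± 0.551% (SD, n = 2) against 81.3 ± 2.74%. The 20.3 points of difference exceeded the spread between samples. The exact two-sided permutation test over samples gave p = 0.333, the smallest that this test can give for 2 samples against 2, and an adjusted p of 1 over the 6 genes. This test could therefore not call a share at this size. The other transcript of this gene, NONMMUT002526.2, had 43.9 and 62.6 CPM in control and 18.9 and 31.3 in cadmium testes. Its samples did not overlap, with a log2 fold change of -1.01 ± 0.552 and, in edgeR, an adjusted p of 0.999991. NONMMUT070512.2 held 53.6 and 65.1% of its gene in control and 65.8 and 67.6% in cadmium testes, which also did not overlap, with the same p of 0.333 in the exact permutation test. The other 4 genes overlapped. In all, 706 known lncRNAs, these 6 included, had a mean testes count of at least 100 and another listed transcript of their gene. Of the 706, 21.8% did not overlap in this share, beside 2 of the 6 here. NONMMUT076280.1 was itself 1 of the 25 that differed by at least as many points as it did.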

How the data were processed

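The tables that the authors deposited list, per sample, the transcripts above 0 with an expected count and an FPKM. The deposited expected counts are not normalized, and the deposited FPKM are scaled by the authors to transcript length and library size. The study's methods name SOAPaligner/SOAP2, the submitters' processing notes name HISAT and mm10, and the tool that estimated the counts is not given in the sources used here. Totals of 366455 to 2866856 counts mean that 3 counts, taken as what a count of 0 allows, were 0.000105 to 0.000819% of a sample. Intervals and floors of this kind cover counting error only.

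The 8 lncRNAs and all lists were chosen with earlier results of these data known. Bounds set the testes share, over the samples summed, against 3 counts of the sperm samples summed or of each sample. The cadmium and control testes samples were compared in edgeR 4.0.16 (R 4.3.3) by its quasi-likelihood test. Expected counts were first rounded to whole numbers, scaled by TMM, and kept where 2 or more samples had an FPKM of 1 or more. Its standard error is worked back from the F statistic and is not a spread between samples. Alternatives were DESeq2 1.42.0, limma 3.58.1 on log2(FPKM + 1) and log2(FPKM + 0.1), other scalings and filters, a replicate block, sums by gene and samples left out. Shares were compared with an exact permutation test. Other work used Python 3.11.15 with pandas 2.3.3, numpy 2.4.6 and matplotlib 3.10.9. Named lncRNAs were all 8, those next to the limits, and the other transcripts of their genes. Genes named on the sperm limit were added after their values were seen. The authors' division of counts between transcripts was taken as deposited.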

Additional observations from a re-analysis of the deposited data

Results flagged for a closer look

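Of the 8 genes, the 6 with a count in sperm were examined for a sperm control sample that stood apart from the other 3, and 2 had such a sample, both times sperm control 2. For NONMMUG010430.2, all transcripts together had 189 CPM (counts scaled to a common library total) in sperm control 2, against 325 to 334 in the other control sperm samples. Sperm cadmium 1 and 2, with 197 and 210 CPM, lay close to sperm control 2. For NONMMUG039781.2, sperm cadmium 1 and 2 had 5.81 and 2.81 CPM. Sperm control 2 had 3.17 CPM, and the other 3 control sperm samples listed none of the gene. Chance alone sets apart about 1 in 20 such groups, a rate that does not apply to NONMMUG039781.2, where any count in a single sample sets it apart from 3 samples at 0. Sperm control 2 had the highest total of the control sperm samples, 1058017 counts against 366455 to 508252. Sperm cadmium 1 and 2 had totals of 1155491 and 1254477, and the part of depth in these values was not tested.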

How the results depend on the processing

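The number of lncRNAs chosen rests on the limits. It was 18 with a floor of 50 counts in each testes sample, 4 with a floor of 200, and 28 if fewer than 3 counts in each sperm sample sufficed. Leaving out a sample gave between 8 and 18, the highest without sperm cadmium 1, and summing transcripts with the same gene, length and count left 8. In 2 of the 8 no other transcript of the gene was listed in sperm, also when listing took 3 counts or when any sperm sample was left out.

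For cadmium in testes, none of the 8 was called under any of the alternatives, with an adjusted p of at least 0.999379. The number of all transcripts called moved from 0 in edgeR to 26 with DESeq2 (15 higher, 11 lower), 354 with no filter (187 higher, 167 lower), 4 with counts summed by gene, and 68 to 110 when a sample was left out, where the lone sample left in a group is assumed to vary like the other group. The median log2 fold change of the 8 was -0.43 to 0.56 when a sample was left out. Over the 8 lncRNAs in 14 alternative fits, the direction turned in 18 of 112 values, 13 of them with a sample left out. The ranges were then -0.63 to 0.75 for NONMMUT016583.2, -0.48 to 0.44 for NONMMUT027474.2, -0.39 to 0.87 for NONMMUT040794.2, -1.03 to 0.15 for NONMMUT064462.2, -0.49 to 0.69 for NONMMUT070512.2, -0.0021 to 0.97 for NONMMUT076280.1, -0.66 to 0.18 for NONMMUT116489.1 and -0.41 to 0.18 for NONMMUT121871.1. NONMMUT070512.2 turned to 0.00265 and 0.00343 with limma at pseudocounts of 1 and 0.1, and NONMMUT064462.2 to 0.0904 when summed by gene and to 0.0954 when merged with NONMMUT127999.1, a step added after the data were seen. The cause was not tested.

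The labels give control and cadmium testes the same replicate numbers without saying that a number marks a shared batch. Differences between replicates 1 and 2 correlated between the groups across 28423 transcripts, which are not independent (r = 0.434). For all 8 lncRNAs the replicate numbers did not overlap, as for 61.2% of all transcripts tested and 76.9% of the 2031 known lncRNAs over the floor. Without overlap, replicates 2 were above replicates 1 in 6 of the 8 and in 17.2% of all tested. This direction was not compared with that of the 2031 over the same floor. With the replicate block, 15 of the 28423 transcripts were called, none of the 8, and NONMMUT070512.2 turned to 0.0711. In that edgeR fit, 730 of the 28423 had an unadjusted p under 0.05, with 1 of the 8 among them. In the sperm sample of least depth, a share of up to 0.000819% could be missed.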
